A study of Mus musculus with 30 samples.

Results

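The response of mouse dendritic cells to ovalbumin protein (OVA) was compared between cells with a knockout of Rubcn (KO) and wild-type cells (WT). The measure is an interaction: the 4 h change in KO minus the 4 h change in WT, on the log2 scale, so that a negative value means a smaller rise or a deeper fall in KO. It rests on 12 of the series' 30 libraries, 3 in each of 4 groups: WT untreated, WT with OVA for 4 h, KO untreated, and KO with OVA for 4 h. All 4 groups were bone marrow cells cultured with FLT3L (200 ng/ml) over 6 to 7 days. FLT3L is a growth factor that drives bone marrow precursors towards plasmacytoid and conventional dendritic cells. The allele, the mouse strain and age, the dose of OVA, and the time at which untreated cultures were taken are not in the labels. Nor do they say whether the 3 libraries of a group came from separate mice, so p-values measure only the spread between libraries of a group. In the main model that spread was estimated from all 30 libraries of the series, not from the 12 alone. Of 25611 gene rows in the table, 14808 had enough counts to be tested, and all of them are covered here.

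Rubcn encodes Rubicon, a protein that restrains canonical autophagy and is needed for LC3-associated phagocytosis, in which LC3 is joined to the membrane of phagosomes. OVA is the standard model antigen for cross-presentation, the loading of peptides from ingested protein onto MHC class I. Dendritic cells that sense microbial products or danger signals through Toll-like receptors activate NF-kB, the interferon factors and AP-1. Those in turn switch on cytokines, chemokines and co-stimulatory molecules.

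Total counts of the 12 libraries were 38.7 to 51.6 M. Levels are given in CPM, counts scaled by library size. Genes listed as dendritic cell markers were present. The summed level of 7 pan-dendritic genes was 19900 to 22700 CPM over the 12 libraries and that of 12 cDC1 genes 5250 to 5880 CPM. A few genes took much of each sum. H2-Ab1, an MHC class II gene, was at 4160 to 5150 CPM. Among cDC1 genes, group means were 2100 to 2210 CPM for Irf8 and 1570 to 1830 for Wdfy4, but 85.9 to 101 for Xcr1 and 114 to 151 for Clec9a. Markers of other cells were present too, and RNA of whole cultures cannot tell fewer cells of a type from less RNA per cell. The sum of 16 stromal genes was 946 to 1260 CPM in WT and 1230 to 1700 CPM in KO, and that of 15 monocyte or macrophage genes was 5000 to 6050 CPM untreated and 6080 to 6620 CPM with OVA. Of the WT libraries with OVA, replicate 3 stood apart. On the third principal component, with 10.1% of the variance, it lay at -30, against 10.5 and 10.2 for replicates 1 and 2. It held more Ibsp, a bone matrix gene (24.6 CPM against 4.29 and 3.99), and was the only one of the 3 with Emcn, an endothelial gene (1.5 CPM against 0 and 0). Both genes were chosen after their values were seen. Replicate 1 of each untreated group stood apart too. By chi-square per gene, untreated WT replicate 1 differed from replicates 2 and 3 by 11 and 17.6, and those 2 from each other by 5.41. For untreated KO the values were 11.6, 14.6 and 3.09. WT OVA replicate 3 differed from replicates 1 and 2 by 8.15 and 7.22, and those 2 from each other by 4.08. Rubcn itself was at 70.4, 72.2 and 75.8 CPM in untreated KO and 95.6, 96.6 and 105 CPM in untreated WT. With OVA it was at 71.3, 72.0 and 70.4 CPM in KO and 89.8, 90.6 and 92.2 CPM in WT. Each KO library was below each WT library, but most of the gene's reads remained, so a count over the whole gene checks the labels only in part. Its response to OVA was not called different (log2 interaction 0.09, SE 0.0669, edgeR FDR 0.78).

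The interaction was called for 6 genes, and in all of them the rise after 4 h of OVA was smaller in KO. They are Mmp14, Rasgef1b, Sod2, Ehd1, Sdc4 and Ptges, 0.0405% of the genes tested (edgeR quasi-likelihood test, Benjamini-Hochberg FDR under 0.05). Each was called as rising in both genotypes. No gene was called with a larger rise or a smaller fall in KO, although 517 genes (3.49%) had a positive interaction at an unadjusted p under 0.05, against 581 (3.92%) with a negative one. DESeq2 called 25 genes, 18 negative and 7 positive, among them the same 6. The count depended on single libraries. It was 15, the 6 among them, without WT OVA replicate 3. It fell to 3 when replicate 2 of the untreated KO cells was left out, and to 4 for each of 5 others: replicates 1 and 2 of untreated WT, replicate 1 of WT with OVA, and replicates 1 and 2 of KO with OVA.

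Mmp14 encodes a membrane-anchored metalloproteinase that cuts collagen (Entrez 17387, mm10 chromosome 14, 54431598 to 54442456). Its level was 40.3, 39.9 and 41.6 CPM in untreated WT and 119, 127 and 133 CPM after OVA. In KO it was 59.9, 54.9 and 55.6 CPM untreated and 111, 101 and 104 CPM after OVA. Every untreated KO library lay above every untreated WT library, and after OVA the order was turned round. The rise was 3.11-fold in WT and 1.86-fold in KO, a log2 interaction of -0.74 (SE 0.0927, edgeR FDR 0.000149). In CPM the mean increase was 85.8 in WT and 48.7 in KO, so it was smaller on that scale as well. Mmp14 is also a gene of stromal cells. The stromal sum was higher in untreated KO (1230 to 1570 CPM) than in untreated WT (946 to 1070 CPM). After OVA it was again higher in KO (1560 to 1700 CPM) than in WT (1010 to 1260 CPM), while Mmp14 was lower in KO. The part of stromal cells in the result was not tested. The 16 stromal genes had a median interaction of -0.19, with 9 negative, none called, and 3 negative and 2 positive at an unadjusted p under 0.05. None of the 16 was at 0 in all libraries of a group.

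Sod2 encodes the mitochondrial manganese superoxide dismutase and is a classical NF-kB target (Entrez 20656, chromosome 17, 13007839 to 13018119). It went from 52.8, 50.7 and 49.9 CPM to 96.7, 98.0 and 89.2 CPM in WT. In KO it went from 56.3, 55.3 and 54.1 CPM to 80.8, 79.9 and 82.0 CPM. The KO libraries were the higher ones before OVA and the lower ones after it, without overlap at either time. The log2 interaction was -0.34 (SE 0.0523, edgeR FDR 0.00266), and the mean increase was 43.5 CPM in WT and 25.7 CPM in KO.

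The promoters of 3 genes that rose less in KO are shown: the called Mmp14 and Sod2, and Nfkbia, which is described below. Nfkbia fell just short of an edgeR call and carries an NF-kB motif. The promoters are the 250 bases before the start in RefSeq (GRCm38.p6), with a kappaB match in capitals.
Mmp14 promoter, chr14:54431348-54431597, plus strand: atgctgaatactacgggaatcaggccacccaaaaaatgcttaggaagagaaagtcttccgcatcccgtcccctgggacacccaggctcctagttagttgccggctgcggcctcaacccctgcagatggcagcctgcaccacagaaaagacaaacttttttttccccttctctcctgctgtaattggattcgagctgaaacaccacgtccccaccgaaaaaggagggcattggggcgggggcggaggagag
Sod2 promoter, chr17:13007589-13007838, plus strand: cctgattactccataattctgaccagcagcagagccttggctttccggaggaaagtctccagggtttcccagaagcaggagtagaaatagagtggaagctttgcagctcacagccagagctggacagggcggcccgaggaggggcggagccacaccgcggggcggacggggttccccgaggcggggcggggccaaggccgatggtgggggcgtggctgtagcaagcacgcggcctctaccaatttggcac
Nfkbia promoter, chr12:55492648-55492897, minus strand: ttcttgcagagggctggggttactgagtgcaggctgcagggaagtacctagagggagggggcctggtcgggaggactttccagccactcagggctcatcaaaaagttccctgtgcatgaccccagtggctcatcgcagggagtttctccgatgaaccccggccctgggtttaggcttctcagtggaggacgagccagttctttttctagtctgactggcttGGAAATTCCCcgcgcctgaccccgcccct
For this, 3 motifs were searched on both strands in the RefSeq windows, which run from 250 bases before to 50 bases after the start. The kappaB form GGGNNTTTCC lay in the windows of 8.78% of genes whose average response over the genotypes was a rise of log2 1 or more (13 of 148 with an entry) and of 2.08% of all tested genes with an entry (236 of 11355). For the interferon response element GAAANNGAAA the shares were 14.2% and 3.97%, and for the AP-1 site TGANTCA they were 15.5% and 6.65%. Among the 5 called genes with an entry, 1 (20%) had a kappaB match, Rasgef1b, and it lies after the start. The lack of a match in the other windows says only that these letters are not there. Ehd1 was not matched.

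Rasgef1b encodes an exchange factor for Ras-family GTPases (Entrez 320292, chromosome 5, 99217420 to 99252927). Its level was 36, 32.8 and 32.7 CPM in untreated WT and 40.2, 34.3 and 35.4 CPM in untreated KO, where the groups overlapped. After OVA it was 96.7, 93.9 and 84.6 CPM in WT and 63.4, 57.3 and 65.3 CPM in KO, without overlap. The log2 interaction was -0.68 (SE 0.0985, edgeR FDR 0.00127). At 30 min of OVA it had risen by 1.02 in WT and 0.61 in KO on the log2 scale, and that difference of -0.41 was not called (FDR 0.79).

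Ehd1 encodes an ATPase of endocytic recycling (Entrez 13660, chromosome 19, 6276896 to 6300096). Untreated levels were 55.8, 56.3 and 59.4 CPM in WT and 57.5, 57.8 and 56.3 CPM in KO. They reached 151, 153 and 133 CPM in WT and 109, 104 and 113 CPM in KO. The genotypes thus started together and separated after OVA (log2 interaction -0.42, SE 0.0771, edgeR FDR 0.022). Leaving out any 1 of 8 libraries ended the call, with an FDR of up to 0.136, and the interaction stayed between -0.48 and -0.39.

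Sdc4 encodes syndecan-4, a heparan sulfate proteoglycan of the cell surface (Entrez 20971, chromosome 2, 164424247 to 164443188). It went from 60.8, 60.8 and 60.6 CPM to 110, 113 and 98.9 CPM in WT and from 63.6, 58.3 and 58.3 CPM to 83.4, 81.2 and 85.8 CPM in KO. Here too the untreated groups overlapped and the OVA groups did not (log2 interaction -0.34, SE 0.0655, edgeR FDR 0.0342). This was the least stable of the calls. It was lost without any 1 of 9 libraries, and with the 12 libraries fitted alone the FDR was 0.0943.

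Ptges encodes the inducible prostaglandin E synthase (Entrez 64292, chromosome 2, 30889471 to 30903297) and was under 5 CPM in every group, outside the rule for named genes. It was at 0.401, 0.647 and 0.531 CPM in untreated WT and 2.62, 2.85 and 2.78 CPM after OVA. In KO it was at 1.20, 1.29 and 0.942 CPM untreated and 1.97, 1.64 and 1.68 CPM after OVA. As with Mmp14, KO was above WT before OVA and below it afterwards. Its interaction had the greatest size of the 6, -1.74 (SE 0.293, edgeR FDR 0.00821). The call was lost without WT untreated replicate 1 (FDR 0.0547) or KO untreated replicate 2 (FDR 0.0557).

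**Figure D1:**
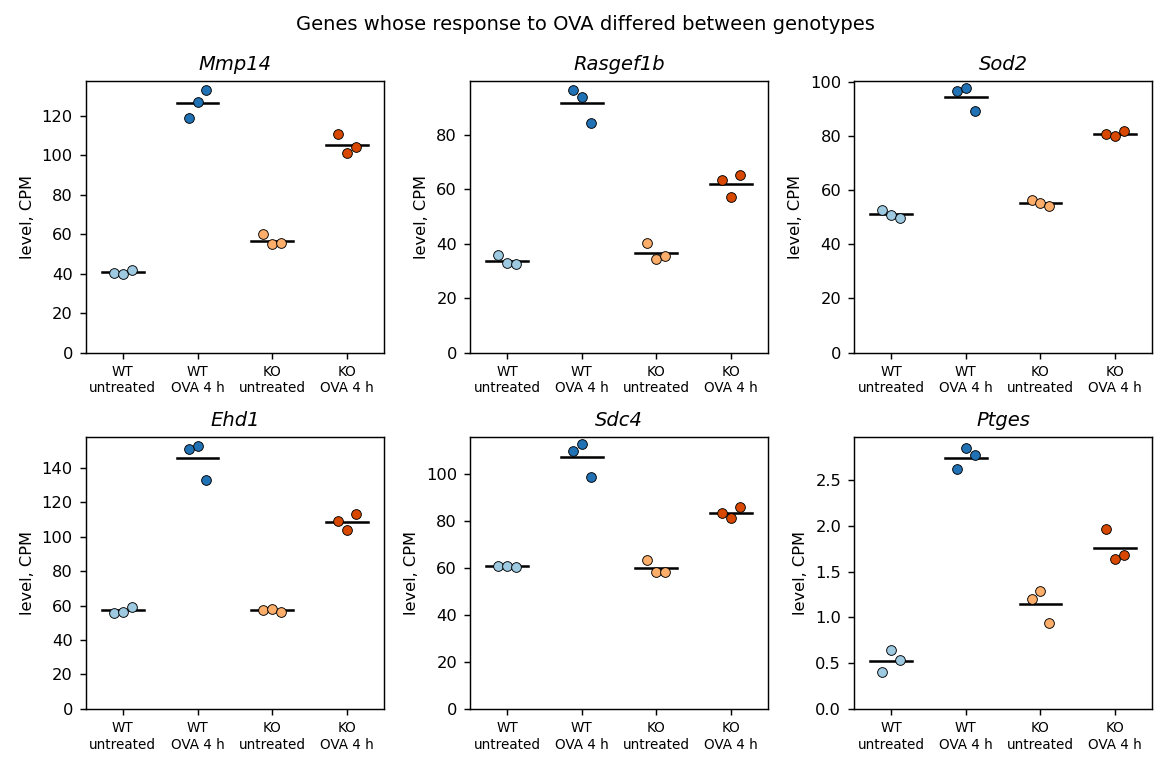
Level in CPM (vertical axes, from 0) of the 6 genes called in the interaction, with 1 point per library and a bar at the mean of 3 libraries, for WT (blue) and KO (orange), untreated (light) and with OVA for 4 h (dark). In each panel the 3 KO libraries with OVA lie below the 3 WT libraries with OVA, and for Mmp14, Sod2 and Ptges the untreated KO libraries lie above untreated WT. The genes were selected by a test on these same libraries, so the separation is a description.

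A further 4 genes lay next to edgeR's threshold and were chosen after their values were seen. DESeq2 called all 4, with adjusted p of 0.00451 for Nfkbia and Ets2, 0.00802 for Cd300lg and 0.0459 for Nadsyn1, and each was also called by edgeR under at least 1 other filter or replicate block. Nfkbia, the NF-kB inhibitor that NF-kB itself induces, was at 88.8, 96.0 and 92.8 CPM in untreated WT and 87.5, 88.6 and 87.4 CPM in untreated KO. After OVA it was at 218, 217 and 192 CPM in WT and 157, 144 and 160 CPM in KO. Those last groups did not overlap, and the log2 interaction was -0.37 (SE 0.0734, edgeR FDR 0.0556). Ets2, an ETS-family transcription factor, had an interaction of -0.48 with the same FDR, 0.0556. The 2 lowest p-values among positive interactions were those of Nadsyn1, an enzyme of NAD synthesis (0.38, FDR 0.0629), and of Cd300lg, a membrane glycoprotein (0.33, FDR 0.0666). Cd300lg fell from 52.1, 55.8 and 57.7 CPM to 37.1, 37.1 and 39.6 CPM in WT. In KO it fell from 47.1, 51.2 and 50.4 CPM to 44.3, 42.7 and 41.2 CPM.

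The size of the whole response was then compared. Genes were taken by the average of the KO and WT responses, which weights both genotypes equally: an FDR under 0.05 and a log2 change of at least 1. That gave 186 rising genes, 1.26% of those tested. Their median rise was 3.16-fold in WT (log2 1.66) and 2.43-fold in KO (log2 1.28). The rise was smaller in KO in 140 of them (75.3%), while over all genes 50.6% of interactions were negative. The median interaction was -0.34, against 0.00 over all genes (-0.002). At an unadjusted p under 0.05 the rise was smaller in KO for 42 genes and larger for 3, and 3.92% of all genes had a negative interaction at that p. The interaction was called for 4 of the 186. Of the 186, 84 reached 5 CPM in a group, and the rise was smaller in KO in 71 of these (84.5%). A gene could reach 5 CPM in WT with OVA alone, as Iigp1 did (mean 12.4 CPM, against 3.75 in KO with OVA). That filter can favour genes with a smaller rise in KO, so the 84.5% is no further support.

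The libraries were also set side by side on these 186 genes, which were selected on the same libraries, so the values are a description. The median change from the mean of untreated libraries of the same genotype was 1.504, 1.496 and 1.396 log2 units in the 3 WT libraries with OVA. In the 3 KO libraries it was 1.14, 1.14 and 1.10, so all of these lay below all WT libraries. Untreated libraries ranged from -0.03 to 0.05 in WT and from -0.09 to 0.14 in KO. WT OVA replicate 3 had the lowest of the WT values. With a log2 threshold of 0.5 there were 541 rising genes, with a smaller rise in KO in 439 (81.1%) and a median interaction of -0.25.

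**Figure D2:**
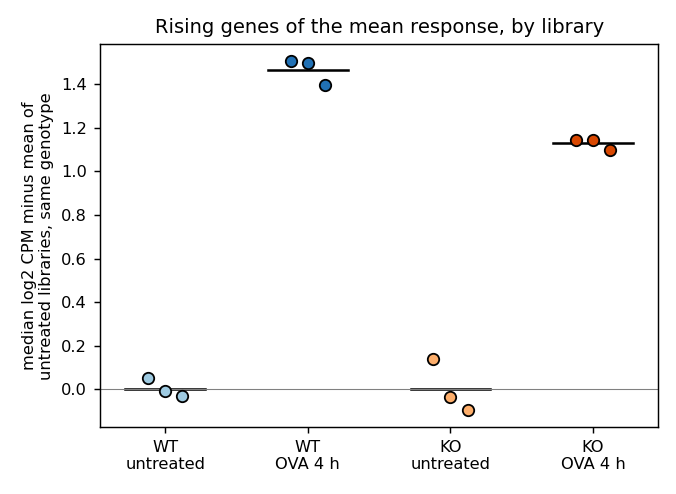
Median over the 186 rising genes of log2 CPM minus the mean of the untreated libraries of the same genotype (vertical axis, log2 units), with 1 point per library and a bar at the mean of 3. The WT libraries with OVA lie at 1.396 to 1.504 and the KO libraries with OVA at 1.10 to 1.14.

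Levels of the same genes differed more between the genotypes after OVA than before it. For each gene the log2 difference after OVA is the untreated difference plus the interaction. The larger difference therefore restates the smaller rise and is not a separate result. Among the 186 rising genes, 29 were called lower in KO and 9 higher in untreated cells, where 3.97% of all genes were called lower. After OVA 79 were called lower in KO and 2 higher, where 6.35% of all genes were called lower. The median KO against WT difference was -0.22 log2 units untreated and -0.605 after OVA. In CPM, the increase was smaller in KO for 162 of the 186, and the median ratio of the KO increase to the WT increase was 0.542. A lower untreated level in KO also makes the CPM increase smaller at an equal fold. Only 10 genes fell by log2 1 or more on average, too few for a stable value: their median interaction was -0.44, and it was 0.09 over the 85 falling genes of log2 0.5 or more.

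**Figure D3:**
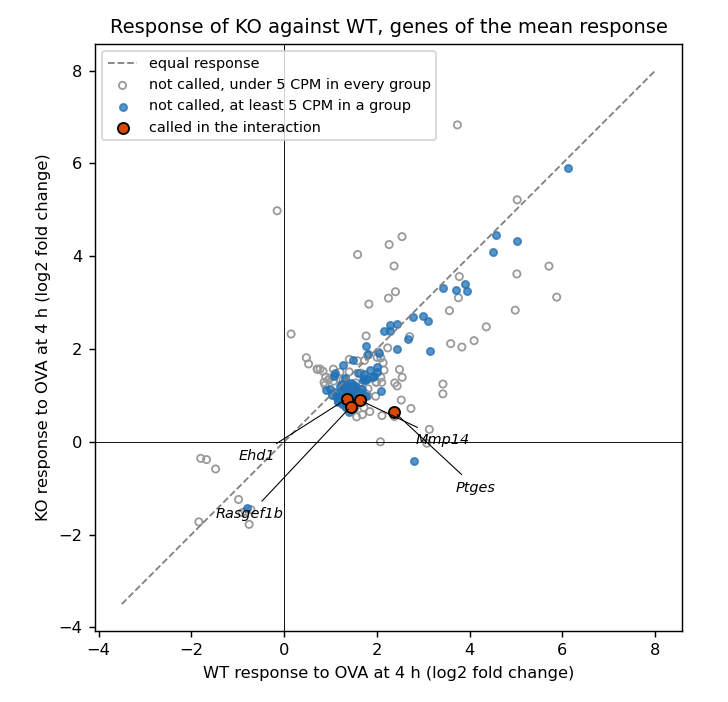
Log2 response to 4 h of OVA in KO (vertical) against WT (horizontal) for the 186 rising and 10 falling genes of the average response; open circles are genes under 5 CPM in every group, blue points the others, orange points the 4 called in the interaction, and the dashed line marks equal responses. Most rising genes lie under the line (140 of 186), and those far above it are open circles.

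NF-kB subunits, inhibitors and targets made up a list of 30 genes, and 28 of them (93.3%) had a negative interaction, with a median of -0.23. Negative shares were 50.6% over all genes, 75.3% over the 186 rising genes and 84.5% over those at 5 CPM or more. Sod2 was called by edgeR, Nfkbia and Sod2 by DESeq2, and 13 were negative at an unadjusted p under 0.05, against 3.92% of all genes. In WT 26 of the 30 rose (11.9% of all genes did) and in KO 23 (5.94%). In untreated cells 5 were called lower in KO (3.97% of all genes were) and after OVA 23 were (6.35%), with none called higher at either time. Examples chosen for their low p were Tnfaip3, the A20 inhibitor of NF-kB signalling, and Icam1, an adhesion molecule for T cells. Tnfaip3 went from 57.6, 57.8 and 58.8 CPM to 130, 121 and 113 CPM in WT and from 55.0, 52.1 and 50.1 CPM to 86.7, 81.5 and 87.0 CPM in KO (log2 interaction -0.36, edgeR FDR 0.199). Icam1 reached 226, 220 and 198 CPM in WT and 161, 146 and 157 CPM in KO (-0.38, FDR 0.327). Among subunit genes, Nfkb2 and Relb had interactions of -0.20 and -0.23 and Nfkb1 and Rela of -0.07 and -0.09, none of them called. Clec4e, the Mincle receptor, and Marco, a scavenger receptor, had the largest WT responses among members at 5 CPM or more. Clec4e went from 3.74, 3.36 and 3.29 CPM to 59.3, 54.1 and 42.6 CPM in WT and from 3.11, 2.4 and 2.5 CPM to 27.3, 26.6 and 30.5 CPM in KO. Its interaction of -0.51 had an SE of 0.379 and was not called (FDR 0.782). Marco reached 16.7, 17.3 and 11.6 CPM in WT and 4.83, 4.42 and 5.66 CPM in KO (-0.42, SE 0.607, FDR 0.927).

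Chemokines, which recruit other leukocytes, had a median interaction of -0.29 over 19 tested genes of 20 listed, and 16 were negative (84.2%). Among the 186 rising genes the share was 75.3%, and among those at 5 CPM or more it was 84.5%. None was called by edgeR, 7 were negative and 1 positive at an unadjusted p under 0.05, and DESeq2 called Ccl3 and Ccl4. Both encode chemokines that attract monocytes and T cells. Ccl3 went from 7.08, 6.04 and 5.92 CPM to 30.3, 29.7 and 21.6 CPM in WT and from 8.92, 7.48 and 7.11 CPM to 18.6, 14.8 and 16.2 CPM in KO (log2 interaction -1.01, SE 0.251, edgeR FDR 0.184). Ccl4 reached 29.4, 29.8 and 20.9 CPM in WT and 11.8, 8.97 and 9.78 CPM in KO (-1.18, SE 0.332, FDR 0.327). These 2 genes were taken as examples for their low p. Their groups after OVA were apart, and WT replicate 3 was the lowest of its group for each. Without that library edgeR called Ccl3. Cxcl10, an interferon-induced ligand of CXCR3, went from 2.32, 2.16 and 2.33 CPM to 84.8, 78.6 and 59.1 CPM in WT and from 2.16, 1.33 and 1.02 CPM to 36.4, 23.8 and 30.0 CPM in KO (-0.70, SE 0.919, FDR 0.917). Cxcl2, which attracts neutrophils, had an interaction of -0.11 (FDR 0.993) that changed sign without WT untreated replicate 2 or KO untreated replicate 3.

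Cytokines had a median interaction of -0.25 over 26 genes, 23 of them negative (88.5%). Beside it stand 75.3% of the 186 rising genes and 84.5% of those at 5 CPM or more. None was called by edgeR or DESeq2, and at an unadjusted p under 0.05 there were 3 negative and 1 positive. With the 12 libraries alone 9 of 23 were negative and 2 positive at that p. In WT 15 rose and in KO 8, while the share of all genes that rose was 11.9% in WT and 5.94% in KO. Tnf went from 9.73, 11.5 and 10.2 CPM to 61.6, 60.9 and 48.5 CPM in WT and from 9.43, 9.43 and 9.10 CPM to 40.1, 34.3 and 37.6 CPM in KO. Its level after OVA was called lower in KO (log2 -0.61, edgeR FDR 2.16e-05), and its interaction was not called (-0.44, SE 0.144, FDR 0.436). Il1b, the precursor of the inflammasome product, went from 22.8, 25.6 and 23.6 CPM to 67.9, 57.8 and 47.9 CPM in WT and from 25.7, 25.7 and 24.3 CPM to 51.1, 44.4 and 50.9 CPM in KO. The groups after OVA overlapped there (interaction -0.32, FDR 0.76).

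Maturation and co-stimulation genes, through which a dendritic cell instructs T cells, had a median interaction of -0.18 over 28 genes. Of these, 23 were negative (82.1%, beside 75.3% of the 186 rising genes and 84.5% of those at 5 CPM or more). None was called by edgeR, 8 were negative and none positive at an unadjusted p under 0.05, and DESeq2 called Cd83. In WT 22 rose and in KO 13, and rising calls were fewer in KO over all genes as well (11.9% and 5.94%). Cd83, a surface marker of mature dendritic cells, went from 135, 131 and 132 CPM to 246, 213 and 192 CPM in WT and from 125, 133 and 131 CPM to 158, 154 and 164 CPM in KO (log2 interaction -0.42, SE 0.101, edgeR FDR 0.184). Marcksl1, an actin-binding protein, reached 379, 352 and 306 CPM in WT and 239, 222 and 251 CPM in KO from 123 to 133 CPM in all untreated libraries (-0.50, SE 0.123, FDR 0.184). Both started level and ended apart. They were chosen as examples for their low p, so the separation is a description. Cd274, the checkpoint ligand PD-L1, was at 14.0, 12.4 and 12.2 CPM in untreated WT and 13.8, 12.4 and 12.3 CPM in untreated KO. It reached 36.2, 35.6 and 34.2 CPM in WT and 25.8, 22.9 and 23.2 CPM in KO. In the model of all 30 libraries its interaction of -0.56 had an SE of 0.254 and an FDR of 0.645. With the 12 libraries fitted alone the SE was 0.0931 and the FDR 0.0448, so the call depended on which libraries gave the spread. Cd40, the receptor for T-cell help, reached 78.7, 73.8 and 59.5 CPM in WT and 39.7, 33.0 and 36.3 CPM in KO (-0.51, FDR 0.78, and 0.239 with the 12 libraries).

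Sterol and fatty acid genes differed in another way: their untreated levels were already apart. Of 26 genes 25 had a negative interaction, with a median of -0.17 (-0.165). None was called by edgeR or DESeq2, and 11 were negative and none positive at an unadjusted p under 0.05. In untreated cells 20 were called higher in KO (6.00% of all genes were), and after OVA 10 were (6.22%). In WT 15 rose and in KO 4, beside 11.9% and 5.94% of all genes. At 30 min of OVA, against the same untreated libraries, the list's median interaction was already -0.183 (-0.001 over all genes). Sqle, which oxidises squalene, was at 110, 112 and 109 CPM in untreated WT and 143, 131 and 126 CPM in untreated KO, and at 144, 136 and 135 CPM and 135, 137 and 151 CPM after OVA (-0.24, FDR 0.367). Its genotypes were apart before OVA and overlapped after it. Nr1h3, the oxysterol receptor LXR-alpha, overlapped between the genotypes before OVA. It was at 11.9, 9.25 and 8.16 CPM in untreated WT and 10.6, 7.46 and 7.71 CPM in untreated KO, and reached 32.2, 35.7 and 29.5 CPM and 23.7, 19.2 and 21.5 CPM (-0.41, FDR 0.627).

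Interferon-stimulated genes rose in both genotypes from a lower level in KO. Of 44 genes 42 rose in WT and 41 in KO, with median log2 responses of 0.82 and 0.77. In untreated cells 42 were called lower in KO, with a median of -1.04, and after OVA all 44 were, with a median of -1.12. Over all genes 3.97% were called lower in untreated KO and 6.35% after OVA. Their median interaction was -0.07. None was called by edgeR or DESeq2 or had an unadjusted p under 0.05 in the model of all 30 libraries. With the 12 libraries fitted alone 11 were negative (25%, against 4.58% of all genes) and 4 positive at that p, and again none was called. The sum of 12 markers of plasmacytoid dendritic cells, which are strong producers of interferon, was 3050 to 3150 CPM in WT and 2670 to 2920 CPM in KO. In untreated cells 6 of the 12 were called lower in KO and 1 higher (3.97% and 6.00% of all genes were). The counts were the same after OVA (6.35% and 6.22%). None of the 12 was at 0 in all libraries of a group. Their part in the lower level of interferon-stimulated genes in KO was not tested. Rsad2, the antiviral protein viperin, went from 12.2, 9.75 and 12 CPM to 133, 126 and 103 CPM in WT and from 5.98, 3.71 and 3.29 CPM to 46.9, 39.7 and 42.1 CPM in KO. Its interaction was -0.10 (SE 0.662 with 30 libraries and 0.214 with 12), and it changed sign without KO untreated replicate 1. Ifit1, which binds foreign RNA, went from 12.4, 11.0 and 11.6 CPM to 87.5, 82.2 and 71.4 CPM in WT and from 6.32, 4.52 and 3.67 CPM to 30.8, 28.7 and 33.6 CPM in KO (-0.10, SE 0.574). It changed sign without the same library. The interferon-induced GTPases (guanylate-binding proteins and immunity-related GTPases) had a median interaction of -0.20 over 18 genes, 15 of them negative and none called by either tool or under an unadjusted p of 0.05. With the 12 libraries alone 5 of 17 were negative and none positive at that p (29.4%).

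Acod1, which makes itaconate, had the largest WT response of the named genes at 5 CPM or more. It went from 1.76, 1.49 and 1.35 CPM to 119, 117 and 83.5 CPM in WT and from 0.588, 0.871 and 0.882 CPM to 48.8, 41.3 and 51.1 CPM in KO. All KO libraries were below all WT libraries at both times, and the level after OVA was called lower in KO (log2 -1.18, edgeR FDR 0.00655). The folds were nearly alike, with log2 responses of 6.12 in WT and 5.91 in KO and an interaction of -0.21 (SE 0.907, FDR 0.99). That SE allows a wide range of differences, and with the 12 libraries alone it was 0.355. The list of 15 tested itaconate, nitric oxide, arginine and tryptophan genes had a median of -0.21, with 11 negative, none called by either tool and 3 negative at an unadjusted p under 0.05.

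**Figure D4:**
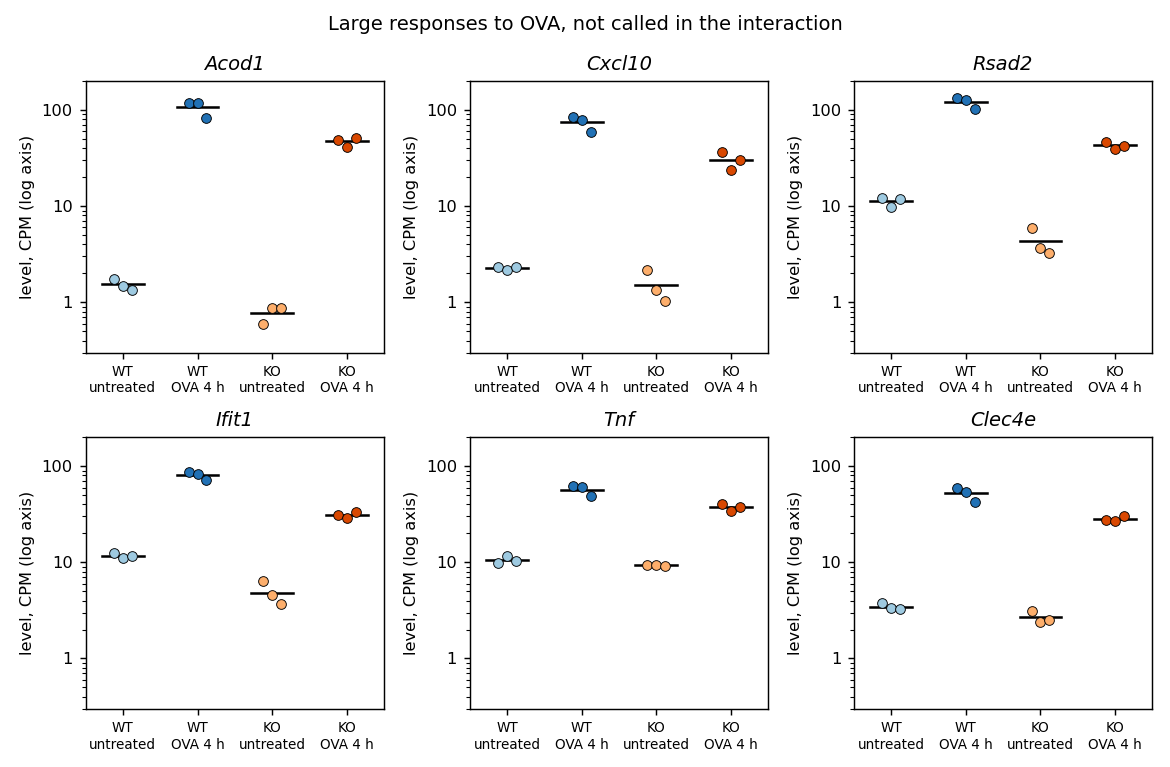
Level in CPM (log axes, the same range in each panel) of 6 genes with large responses that were not called in the interaction, with 1 point per library and a bar at the mean of 3 libraries. KO libraries with OVA lie below WT libraries with OVA in all 6 panels, and untreated KO lies below untreated WT in all of them except Cxcl10, by a narrow margin for Tnf (9.43 against 9.73 CPM at the nearest).

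Upstream of these genes, the Toll-like receptors and adaptors had a median interaction of -0.06 over 31 genes, with 23 negative, 3 of them at an unadjusted p under 0.05, and none called by edgeR. DESeq2 called Cd14, the co-receptor for lipopolysaccharide. Cd14 went from 31.5, 30.4 and 28.8 CPM to 108, 116 and 90.5 CPM in WT and from 35.5, 30.0 and 25.9 CPM to 80.0, 74.3 and 78.2 CPM in KO (-0.45, SE 0.11, edgeR FDR 0.184). Without WT OVA replicate 3 edgeR called it too. Immediate early factors, which respond first to a stimulus, had a median of -0.11 over 30 genes, with 25 negative. None was called by either tool, and 8 were negative and 2 positive at an unadjusted p under 0.05. Dusp2, a MAP kinase phosphatase of that list, reached 46.7, 44.8 and 37.6 CPM in WT and 33.1, 29.2 and 31.6 CPM in KO (-0.29, edgeR FDR 0.606).

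Genes of antigen presentation and of Rubicon's own pathway had small median interactions, though most MHC class I genes were negative. The 33 tested MHC class I and cross-presentation genes had a median interaction of -0.06, with 27 negative (81.8%, against 50.6% of all genes). Of these, 2 had an unadjusted p under 0.05 (3.92% of all genes were negative at that p), and none was called by either tool. Nlrc5, the activator of MHC class I genes, went from 136, 132 and 146 CPM to 197, 199 and 197 CPM in WT and from 84.5, 87.3 and 86.0 CPM to 117, 118 and 111 CPM in KO. It was lower in every KO library at both times and its responses were close (interaction -0.09, SE 0.142, edgeR FDR 0.93). The 16 MHC class II genes had a median of -0.03, with 9 negative (56.2%), 1 of them at an unadjusted p under 0.05. The 34 genes of LC3-associated phagocytosis, autophagy and the NADPH oxidase had a median of 0.00 (-0.003). Of them 19 were negative (55.9%), 3 at that p, and none was called by either tool. Ncf4, an oxidase subunit, went from 70.5, 76.6 and 75.6 CPM to 104, 111 and 103 CPM in WT and from 71.9, 77.0 and 73.3 CPM to 101, 92.9 and 99.3 CPM in KO (-0.11, SE 0.0652, FDR 0.727).

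Cell-cycle genes had the only positive median among the 16 function lists, 0.05 over 30 genes, with 27 positive. Both sizes and calls were small: none was called by either tool, and 2 were positive and none negative at an unadjusted p under 0.05. In WT 7 were called as falling (11.7% of all genes were) and in KO 2 (5.69%). Kif20a, a mitotic kinesin, went from 63.7, 63.6 and 61.2 CPM to 56.0, 55.3 and 57.1 CPM in WT. In KO it was at 57.9, 62.3 and 62.6 CPM untreated and 62.4, 61.0 and 58.6 CPM after OVA (0.16, SE 0.0606, edgeR FDR 0.57). The glycolysis and hypoxia list had a median of -0.05 over 24 genes, with none under an unadjusted p of 0.05.

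**Figure D5:**
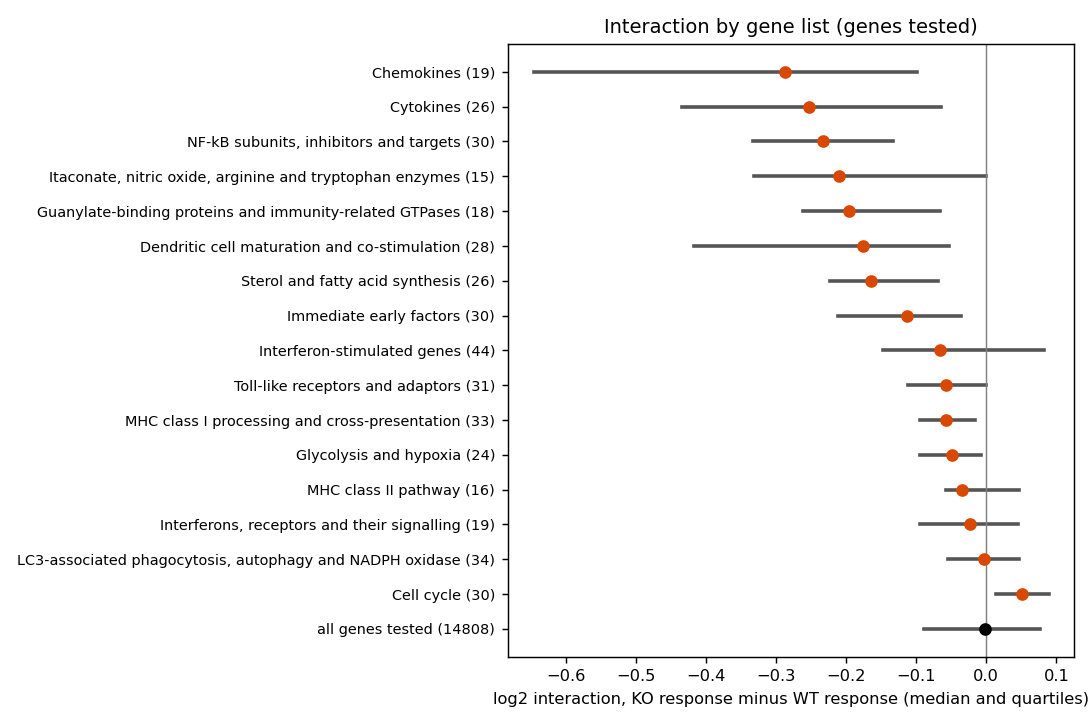
Log2 interaction (horizontal axis) of 16 function lists and of all genes tested, with a point at the median, a line from the lower to the upper quartile and the number of tested genes in parentheses. Chemokines lie lowest at -0.29, cell-cycle genes highest at 0.05, and all genes at 0.00.

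At 30 min of OVA, a library set that shares the untreated groups with the 4 h comparison, edgeR called no interaction (0%), with 795 genes at an unadjusted p under 0.05, and DESeq2 called none, with 670. KO OVA 30 min replicate 3 held 9.73 M counts, against 42.8 to 47.3 M in the other 5 libraries of that time, and without it the count was also 0. The 6 genes called at 4 h had 30 min interactions of -0.16 (Mmp14), -0.41 (Rasgef1b), -0.14 (Sod2), -0.03 (Ehd1), -0.15 (Sdc4) and 0.03 (Ptges). Their FDRs ran from 0.79 to 1. A p that misses the threshold does not show that the early responses were alike, and the change of the interaction between 30 min and 4 h was not tested.

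Markers of other cells moved in part with these results. The summed level of 12 endothelial markers was 90.6 to 97.1 CPM in untreated WT and 120 to 138 CPM after OVA, and 87.2 to 96.0 CPM and 94.7 to 97.1 CPM in KO. Of these 12, 2 were at 0 in all untreated WT libraries and 1 in all KO libraries with OVA. Kdr, a VEGF receptor, took much of that sum. It was at 28, 26.2 and 29.9 CPM in untreated WT, 58.7, 57.2 and 60.2 CPM after OVA, and 24.4, 25.2 and 25.4 CPM in KO with OVA, from 17.4, 15.6 and 15.2 CPM. Emcn and Cldn5, in contrast, were at 0 in WT OVA replicates 1 and 2 and at 1.5 and 1.31 CPM in replicate 3. The 11 endothelial genes tested had a median interaction of -1.07, with 10 negative, 1 of them at an unadjusted p under 0.05, and none called by edgeR or DESeq2. That median is the value of Ptprb, whose highest group mean was 0.374 CPM. Emcn and Cldn5 had interactions of -9.145 (SE 5.2) and -9.153 (SE 7.75). With the 12 libraries alone 7 were tested, with a median of -0.352, and 3 were negative at that p. The sum of monocyte or macrophage markers was 5000 to 5760 CPM in untreated WT and 6190 to 6620 CPM after OVA, and 5170 to 6050 and 6080 to 6260 CPM in KO, none of the 15 being at 0. Their median interaction was -0.11 over 15 genes, 14 of them negative and none called or under an unadjusted p of 0.05. The part of these cells in the smaller rises of NF-kB, chemokine and cytokine genes was not tested. Without WT OVA replicate 3 the median interaction of rising genes was -0.43, and leaving out each library in turn gave -0.44 to -0.22. The lowest value came without untreated WT replicate 1 and the highest without untreated KO replicate 1.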

How the data were processed

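RNA sequencing of 30 libraries, 12 of which enter this comparison, had been counted per gene. What the authors deposited was a single matrix of unnormalized read counts per gene, with symbols, Entrez identifiers and mm10 intervals, per the file headers. STAR 2.5, Subread, featureCounts 1.5.0-p1, DESeq2 and mm10 are named in the submitters' processing notes, with no role given. Per the labels' protocols the kit was TruSeq RNA Library Prep v2. For strand use and for reads shared by similar or overlapping genes the setting is not given in the sources used here, and such genes are uncertain. Groups and replicate numbers came from the sample titles.

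Counts were scaled with TMM (1.03 to 1.07 in the 12 libraries, 38.7 to 51.6 M counts), and filterByExpr by group kept 14808 genes with 99.99% of counts. Group means of all 30 libraries were fitted together with edgeR (4.0.16, in R 4.3.3), without covariates, and each contrast was tested two-sided by quasi-likelihood F. The common biological coefficient of variation was 0.0515. A Benjamini-Hochberg FDR under 0.05 over all genes made a call. The standard error (SE) is the size of the log2 value divided by the square root of F. Log2 CPM by library used a prior count of 2. The model was checked on simulated counts.

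Named genes were those called at 5 CPM or more in a group, up to 10 by p and 3 by size in each direction. From each of 16 function lists came up to 4 called members and up to 2 not called with the largest WT response. Genes named outside this rule are said to be so, or were taken as examples for their low p. The genes, lists and comparison were chosen with earlier results of these data known. Alternatives were other scalings and filters, a fit of the 12 libraries, replicate blocks, DESeq2 (1.42.0) and leaving out each library.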

Additional observations from a re-analysis of the deposited data

Results flagged for a closer look

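The response to 4 h of OVA differed between the genotypes by the interaction test for 6 genes (edgeR FDR under 0.05). The log2 interactions, KO response minus WT response with 3 libraries a group, were -0.744 for Mmp14, -0.68 for Rasgef1b, -0.338 for Sod2, -0.423 for Ehd1, -0.345 for Sdc4 and -1.741 for Ptges. In each of the 6 genes, all 3 KO libraries with OVA were below all 3 WT libraries with OVA. The genes were selected by a test on these same libraries, so this is a description and no further support. Single outlying samples were not tested in groups of 3 libraries.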

How the results depend on the processing

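Mmp14, Rasgef1b and Sod2 were called under every alternative run. The count of 6 genes called in the interaction was 25 with DESeq2, 11 without a filter on low counts, 10 with a stricter filter, 12 with a replicate block within genotype, 7 with a replicate block across genotypes, and 3 to 15 on leaving out 1 library. Whether replicate numbers mark a shared batch is not settled. For deviations from group means, 18 correlations between same-numbered libraries ran from -0.049 to 0.108, with 1 over 0.1. It was that of replicate 1 of untreated WT with replicate 1 of untreated KO. Correlations over all tested genes can miss a batch that moves only some of them. On leaving out 1 library, KO against WT calls ranged from 1172 to 1927 after OVA (1861 with all) and from 898 to 1501 untreated (1477), and calls of the KO response from 1105 to 1791 (1722). Total counts moved the share of calls higher in KO after OVA from 49.5% to 64.5%, and DESeq2 moved the untreated share from 60.2% to 51.0%. The median interaction of falling genes (-0.442) was 0.088 at a log2 threshold of 0.5 and -0.692 to 0.741 on leaving out 1 library. Interactions of genes not called changed sign on leaving out 1 library for Cxcl2 (-0.485 to 0.17), H2-Q4 (-0.041 to 0.064), Ifit1 (-0.265 to 0.14), Iigp1 (-0.345 to 0.035) and Rsad2 (-0.268 to 0.202). The cause was not tested.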

Other observations

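Socs3, a feedback inhibitor of cytokine receptors, was already higher in KO before OVA. It went from 14.3, 16.7 and 15.3 CPM to 29.2, 28.5 and 27.5 CPM in WT and from 23.1, 23.9 and 23.3 CPM to 32.8, 30.7 and 32.9 CPM in KO. Every KO library was above every WT library at both times, while the interaction was -0.42 (edgeR FDR 0.367, and 0.0645 with the 12 libraries alone). Its list of 19 interferon, receptor and signalling genes had a median interaction of -0.02, with 1 negative and 2 positive at an unadjusted p under 0.05 and none called by edgeR or DESeq2. Slc7a2, an arginine transporter, had an interaction of -0.76 (SE 0.294, FDR 0.57), with 2.05, 1.27 and 1.37 CPM going to 5.66, 5.46 and 4.19 CPM in WT. In KO it went from 2.56, 2.3 and 1.88 CPM to 4.59, 3.87 and 4.41 CPM, so the groups overlapped after OVA.

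Markers of dendritic cell types had interactions near that of all genes, with medians of -0.04 (-0.045) over 12 plasmacytoid, -0.01 (-0.008) over 12 cDC1 and -0.02 (-0.023) over 10 cDC2 genes and none called by edgeR or DESeq2. At an unadjusted p under 0.05 there were 2 genes, both cDC2 and positive. Basophil or mast cell markers were higher in KO before OVA for 8 of 9 tested genes (6.00% of all genes were), with a median of 1.37. After OVA they were for 7 (6.22%), with a median of 1.24.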
